A study of Homo sapiens with 4 samples.

Results

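ZNF667, its divergent long noncoding RNA ZNF667-AS1 and the zinc finger genes around them on the long arm of chromosome 19 were compared between parental PC-3 cells and their bone-metastatic derivative PC-3-BM. The 10 genes were ZNF582, ZNF583, ZNF667, ZNF667-AS1, ZNF471, ZFP28, ZNF470, ZNF71, ZNF835 and ZIM2, given here in chromosome order. They were chosen with the difference between the lines in view, above all that of ZNF667-AS1, and the differences of all 10 are therefore given as a description, with no test. Of the 10 genes, 9 had a probe set annotated to that gene alone, 1 probe set each, out of 18417 genes with such a probe set on the array. ZIM2 shared its probe set with PEG3 and was not given a value of its own.

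The study has 2 groups of 2 arrays each. PC-3 is a prostate cancer line derived from a bone metastasis, labelled here as parental and poor in metastatic potential (PC3-P in the study). PC-3-BM, labelled as high in metastatic potential, is described in the methods as a clone isolated from the femurs and tibias of athymic mice that had received cells into the heart over several rounds, and both lines carried firefly luciferase with green fluorescent protein. The labels mention growth in mice and isolation from bone for both groups, whereas the methods describe culture, so it is not settled in which state the cells were extracted. The arrays are numbered 1 and 2, with nothing on separate cultures, and the p-values below therefore cover array-to-array spread that may be technical.

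KRAB zinc finger proteins are DNA-binding repressors. A row of C2H2 zinc fingers reads the DNA sequence and the KRAB domain recruits TRIM28, which brings histone methylation and heterochromatin proteins to the site. Many of their genes lie in tandem clusters on chromosome 19, where near-identical copies arose by duplication. ZNF667-AS1, also known as MORT, is transcribed away from ZNF667 out of a shared CpG-rich region, and this region and those of neighbours such as ZNF582 and ZNF471 are known as sites of DNA methylation in tumours. DNA methylation was not measured on these arrays.

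The promoter windows of the ZNF667 pair are shown because this divergent pair carries the difference, and that of ZNF71 because it belongs to a bright neighbour with a small difference. Each is taken from RefSeq on GRCh38.p14 and runs from 250 bases before a start site to 50 bases after it, 5′ to 3′, with CG dinucleotides in capitals. ZNF667-AS1 has 2 windows, for start sites 250 bases apart.
ZNF667 (chr19:56477296-56477595, minus strand): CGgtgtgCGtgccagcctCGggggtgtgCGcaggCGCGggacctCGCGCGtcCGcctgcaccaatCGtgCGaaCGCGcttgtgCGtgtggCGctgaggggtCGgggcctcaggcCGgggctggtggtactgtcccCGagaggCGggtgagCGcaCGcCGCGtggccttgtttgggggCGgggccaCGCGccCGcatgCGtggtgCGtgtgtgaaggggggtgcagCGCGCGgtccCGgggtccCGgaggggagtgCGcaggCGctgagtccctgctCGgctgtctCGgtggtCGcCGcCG
ZNF667-AS1 window 1 (chr19:56477624-56477923, plus strand): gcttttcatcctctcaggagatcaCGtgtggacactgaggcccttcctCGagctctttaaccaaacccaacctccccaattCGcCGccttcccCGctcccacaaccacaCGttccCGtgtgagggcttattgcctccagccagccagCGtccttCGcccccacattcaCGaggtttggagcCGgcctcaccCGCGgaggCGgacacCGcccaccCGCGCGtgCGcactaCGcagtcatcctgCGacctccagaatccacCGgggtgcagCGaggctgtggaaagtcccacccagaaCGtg
ZNF667-AS1 window 2 (chr19:56477874-56478173, plus strand): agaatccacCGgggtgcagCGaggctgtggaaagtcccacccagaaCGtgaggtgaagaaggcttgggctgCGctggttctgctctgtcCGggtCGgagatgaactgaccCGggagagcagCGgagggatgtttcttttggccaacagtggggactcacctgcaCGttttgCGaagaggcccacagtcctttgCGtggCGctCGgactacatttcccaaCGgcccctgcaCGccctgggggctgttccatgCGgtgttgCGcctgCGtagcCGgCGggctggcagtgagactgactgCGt
ZNF71 (chr19:56595052-56595351, plus strand): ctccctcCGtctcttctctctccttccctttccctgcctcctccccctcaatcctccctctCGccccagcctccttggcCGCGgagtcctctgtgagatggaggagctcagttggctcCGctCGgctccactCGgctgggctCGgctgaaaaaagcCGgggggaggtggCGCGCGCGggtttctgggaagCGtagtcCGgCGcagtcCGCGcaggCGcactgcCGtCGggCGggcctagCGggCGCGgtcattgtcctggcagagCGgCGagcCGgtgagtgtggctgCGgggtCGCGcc

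The start of ZNF667 lies 529 bases from the nearer start of ZNF667-AS1 on the opposite strand, and 28 bases separate their windows. The ZNF667 window held 42 CG dinucleotides, more than 94.2% of the 35116 promoter windows of the table, with an observed over expected CG ratio of 1.03. The ZNF667-AS1 windows held 24 and 21, and the ZNF71 window held 31, against a median of 14 over all windows and 22 over the 609 windows of other zinc finger genes. Windows were found for 7 of the 10 genes, 9 in all. ZNF471, ZFP28 and ZIM2 had none. The other counts were 30 for ZNF582, 23 and 30 for the 2 windows of ZNF583, 21 for ZNF470 and 29 for ZNF835. All 9 windows had over 50% GC with a CG ratio above 0.6, as did 46.78% of all windows and 73.89% of those of other zinc finger genes. Windows with 30 or more CG dinucleotides belonged to ZNF667, to ZNF71 and to the dim genes ZNF582 and ZNF583.

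**Figure D1:**
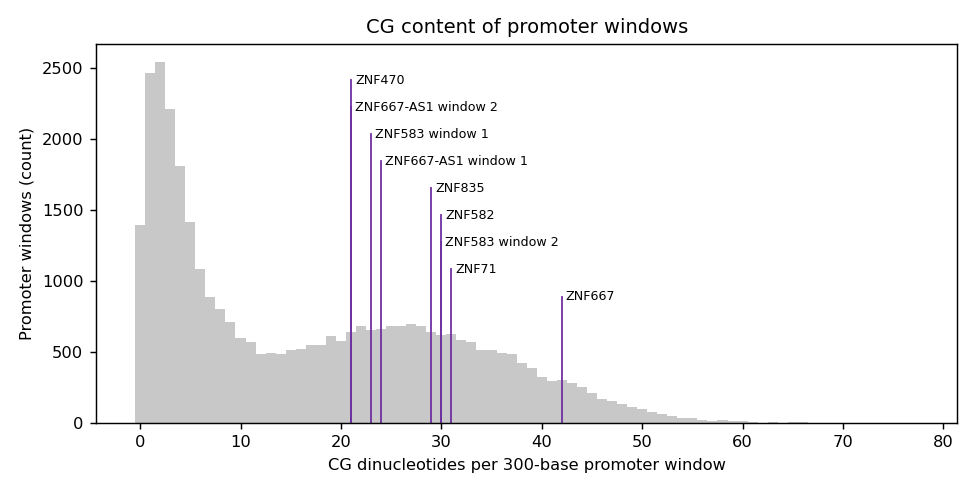
Number of promoter windows (vertical axis, count) by CG dinucleotides per 300-base window (horizontal axis). Grey bars are all 35116 windows and purple lines mark the 9 windows of the neighbourhood genes, from 21 for ZNF470 to 42 for ZNF667.

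A pattern chosen after these windows had been read, ACTACNNNTCCC on either strand, was found in 4 of the 9 windows. Each of the 4 belonged to a different gene of the 7. It resembles the element known to be bound by the transcription factor ZNF143. It stood as ACTACATTTCCC in the second window of ZNF667-AS1, as ACTACACTTCCC in that of ZNF470, as ACTACGCTTCCC in that of ZNF71, and as ACTACAACTCCC and ACTACGACTCCC in that of ZNF835. Over all windows 2.24% held it, and over windows of other zinc finger genes 13.96%. Neither GGGCGG (a GC box, in 44.95% of all windows) nor CCAAT (in 34.61%) was shared by all the windows, but the windows of ZNF667 and the first of ZNF667-AS1 held both, and TATAAA (11.53% of all windows) was in none of the 9. A match is a run of letters and not a measured binding site.

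ZNF667-AS1 had the largest difference of any probe set on the array. Its RMA log2 values were 11.26 and 11.44 on the PC-3 arrays and 5.79 and 5.27 on the PC-3-BM arrays. The groups did not overlap, and the PC-3-BM arrays lay further apart than the PC-3 arrays. The mean was 11.35 ± 0.13 in PC-3 and 5.53 ± 0.36 in PC-3-BM (SD, n = 2), a log2 difference of −5.82 (SE 0.19) or a level 56.5-fold lower in PC-3-BM. It ranked 1 of 33297 probe sets from the most negative difference, and no probe set was as far from 0 in the positive direction, where the highest was 4.67. The PC-3-BM mean lay near the lower quartile of all values (5.02), and RMA gives no detection call, so the size of the difference is uncertain. Fewer cells that express a transcript and less of it per cell cannot be told apart in these bulk RNA samples.

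ZNF667, a KRAB zinc finger gene also known as MIPU1, was lower in the same direction and by a smaller step. Its log2 values were 6.98 and 6.98 on the PC-3 arrays and 5.35 and 5.37 on the PC-3-BM arrays. The arrays of each line were nearly equal, and the lines did not overlap. The means of 6.98 ± 0.00 and 5.36 ± 0.01 (SD, n = 2) differed by −1.62 (SE 0.07), a level 3.08-fold lower in PC-3-BM. This was the difference of rank 77 from the most negative among all probe sets. Among the 519 other measured zinc finger genes, 8 had a more negative difference than ZNF667 and 0 had one more negative than ZNF667-AS1. The PC-3-BM mean again lay close above the lower quartile. ZNF667 and ZNF667-AS1 are read from opposite strands, the probe positions are not in the files used here, and a contribution of one transcript to the probe set of the other was not tested.

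**Figure D2:**
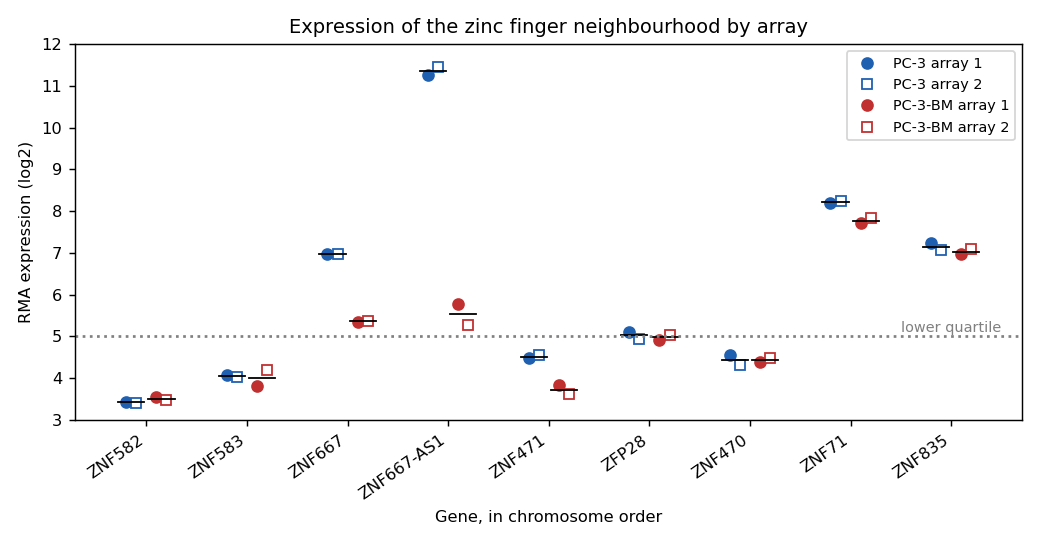
RMA expression (log2, vertical axis) of the 9 measured neighbourhood genes in chromosome order (horizontal axis), 1 mark per array. PC-3 is blue and PC-3-BM red, array 1 is a filled circle and array 2 an open square, short black bars are group means and the dotted line is the lower quartile of all values. ZNF667-AS1 stands at 11.35 in PC-3 and 5.53 in PC-3-BM, while ZNF582 is at 3.42 and 3.51.

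On the far side of ZNF667-AS1, ZNF471, a KRAB zinc finger gene, was also lower in PC-3-BM. Its values were 4.49 and 4.54 on the PC-3 arrays and 3.84 and 3.61 on the PC-3-BM arrays. The lines did not overlap, although all 4 values lay below the lower quartile. The difference was −0.79 (SE 0.10), a 1.73-fold lower level whose size is uncertain at such dim values. ZFP28, the next KRAB zinc finger gene, had 5.11 and 4.94 against 4.92 and 5.04, with overlapping arrays and a difference of −0.05 (SE 0.09). A second probe set that carries the symbols ZFP28 and ZNF229 differed by −0.04 (SE 0.12) and was given to neither gene. ZNF470, which lies beyond ZFP28, had 4.56 and 4.32 against 4.38 and 4.47, again with overlap (difference −0.02, SE 0.11).

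ZNF582 and ZNF583, the KRAB zinc finger genes on the other side of ZNF667, were dim on every array. ZNF582 had 3.44 and 3.41 in PC-3 and 3.54 and 3.48 in PC-3-BM, without overlap and with a difference of 0.08 (SE 0.07). It was the only measured gene of the 9 with a higher mean in PC-3-BM. ZNF583 had 4.07 and 4.02 in PC-3 and 3.81 and 4.19 in PC-3-BM, with overlapping arrays and a difference of −0.04 (SE 0.14). Its PC-3-BM arrays lay on either side of the PC-3 values. For ZNF582, ZNF583, ZNF471 and ZNF470 all 4 arrays lay below the lower quartile, and for ZFP28 2 of 4 did. A lower level could not have been seen in full from such values.

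The brighter genes at the ZIM2 end differed less than the ZNF667 pair. ZNF71, a zinc finger gene beyond ZNF470, had 8.18 and 8.23 in PC-3 and 7.72 and 7.83 in PC-3-BM. The lines did not overlap, and the difference was −0.43 (SE 0.08), a 1.35-fold lower level. ZNF835, a C2H2 zinc finger gene, had 7.22 and 7.06 against 6.96 and 7.08, with overlapping arrays and a difference of −0.12 (SE 0.09). The probe set shared by ZIM2 and PEG3, imprinted zinc finger genes expressed from the paternal allele that share a start region, had 6.15 and 5.92 against 6.01 and 5.86 (difference −0.10, SE 0.11). For these 3 probe sets all values lay above the lower quartile.

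The difference was uneven over the neighbourhood. The 9 differences ran from −5.82 to 0.08 with a median of −0.12, beside a median of −0.02 over all 33297 probe sets and −0.04 over the 18417 genes. Of the 9 genes, 8 had a lower mean in PC-3-BM, as had 10533 of the 18417 genes. ZNF582 had both PC-3-BM arrays above both PC-3 arrays. In 4 genes (ZNF667-AS1, ZNF667, ZNF471 and ZNF71) both PC-3-BM arrays lay below both PC-3 arrays, as in 34.3% of all probe sets. The same 4 genes were below an adjusted p of 0.05 in the fit across all probe sets, where 23.2% of probe sets were called, with 11.6% of probe sets called lower in PC-3-BM (14.8% of genes at 1 probe set per gene). Since the genes were chosen on this contrast, nothing is read from these counts. At the stricter threshold of the study (adjusted p under 0.001 and a log2 difference beyond 2 in size) 0 of the 9 and 0.0511% of probe sets passed in limma. ZNF667-AS1 lay at the edge of this threshold by its adjusted p, and passed it with arrays centred on their medians, over probe sets with a mean above 5, over those with 1 gene symbol and with a variance trend, where 0.252%, 0.339%, 0.427% and 0.297% of probe sets passed.

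**Figure D3:**
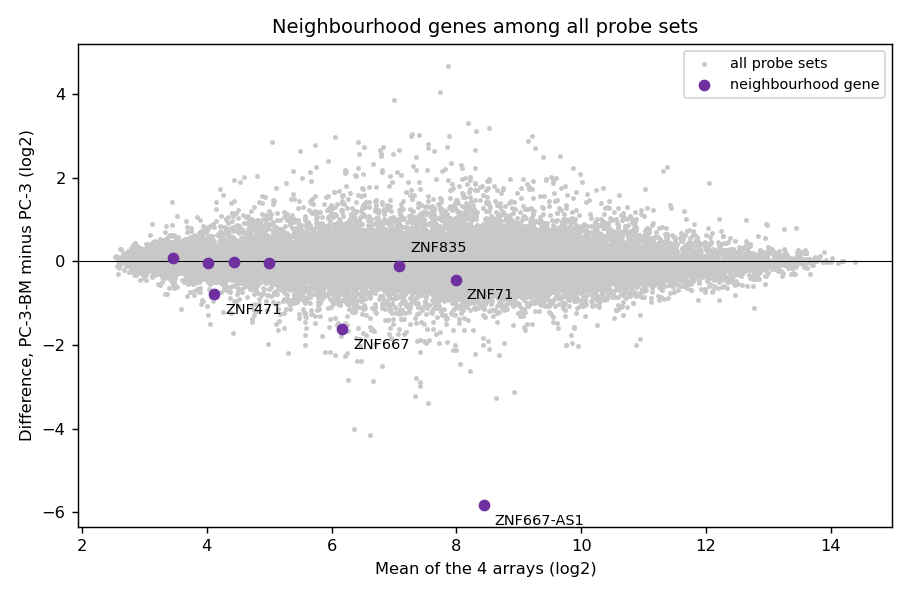
Difference between the lines (PC-3-BM minus PC-3, log2, vertical axis) against the mean of the 4 arrays (log2, horizontal axis) for all 33297 probe sets in grey and the 9 neighbourhood genes in purple. ZNF667-AS1 lies alone at −5.82, ZNF667 at −1.62, and ZNF471 at −0.79.

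The genes beside the neighbourhood were tested, because they were taken by position alone. RefSeq (GRCh38.p14) lists 14 further genes between ZNF582 and ZIM2, and 0 of them had a probe set of its own symbol, so the next 15 measured genes on each side were taken. On the ZNF582 side 2 of 15 fell and 0 rose, with a median difference of −0.08. This is 13.3% called beside 29.6% of all genes, and 14.8% of all genes fell. The 2 on this side were NLRP11, of the NLR family of innate immune sensors (−0.52, SE 0.12, limma, adjusted p = 0.0391), and the zinc finger gene ZSCAN5B (−0.52, SE 0.08, limma, adjusted p = 0.0149). Both were dim, with means over the 4 arrays of 4.50 and 4.84, below the lower quartile. So were 9 of the 15 genes on this side and 5 of the 15 on the ZIM2 side. Over probe sets with a mean above 5, 0 of 6 genes on this side and 7 of 10 on the ZIM2 side were called, beside 39.5% of all genes. Between ZSCAN5B and ZNF582 the measured genes ZSCAN5A and ZNF542P had differences of 0.14 (SE 0.08) and 0.13 (SE 0.10) and were not called.

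On the ZIM2 side 6 of 15 rose and 0 fell, with a median difference of 0.23. This is a share of 40.0% called beside 29.6% of all genes, and 14.8% of all genes rose. The 6 were the zinc finger genes ZNF264, ZNF805, ZNF460, ZNF543, ZNF17 and ZNF419, with differences from 0.31 to 0.49. Most of the 15 genes on this side are zinc finger genes. ZNF805 rose from 8.29 to 8.78 (difference 0.49, SE 0.10, limma, adjusted p = 0.0313) and ZNF460 from 10.01 to 10.50 (0.49, SE 0.07, limma, adjusted p = 0.0104). Over both sides 26.7% of the genes were called, beside 29.6% of all genes at 1 probe set each. Most of these calls were lost on fewer arrays, where fewer of all genes were called as well. With 1 array left out at a time the median difference on the ZIM2 side ran from 0.167 to 0.295. On the ZNF582 side it ran from −0.083 to −0.025, and over all genes from −0.042 to −0.034. With the array number as a block 5 of the 30 were called, 3 of them on the ZIM2 side, a share of 16.7% beside 24.3% of all genes.

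**Figure D4:**
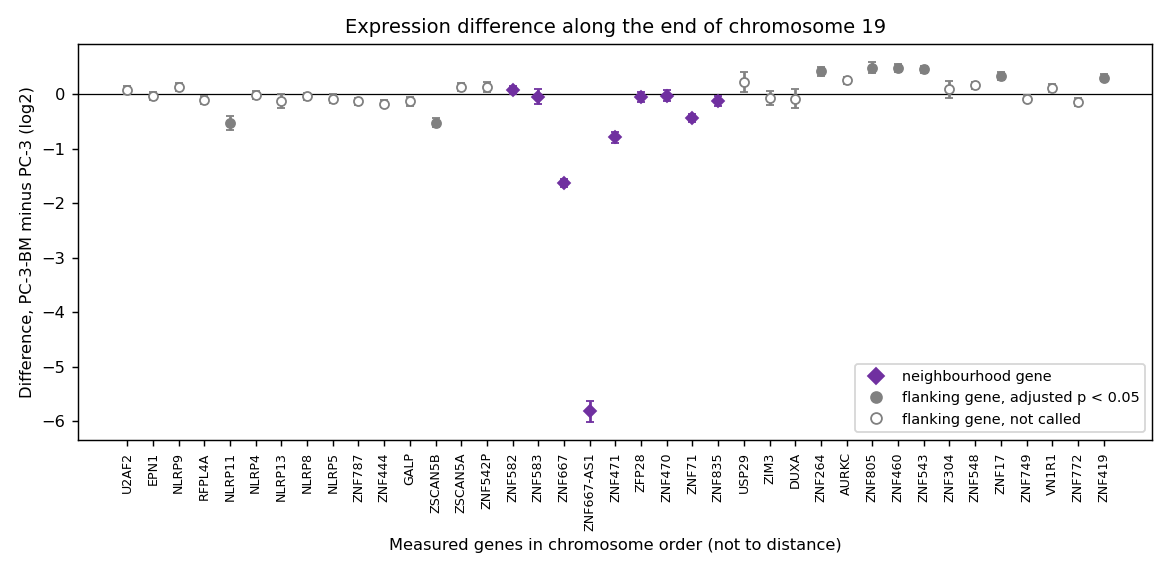
Difference between the lines (PC-3-BM minus PC-3, log2, vertical axis, bars are the SE of the fit) for 39 measured genes in chromosome order (horizontal axis, not to distance). Purple diamonds are the 9 neighbourhood genes and circles the 15 flanking genes on each side, filled at an adjusted p below 0.05. ZNF667-AS1 and ZNF667 stand below all flanking genes, whose differences run from −0.52 to 0.49.

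Of 6 further genes listed for the imprinted PEG3 domain 3 had their own probe set, and they lie among the flanking genes. Expression from each parental allele was not measured. ZNF264 rose, from 8.99 to 9.41 (0.42, SE 0.08, limma, adjusted p = 0.0241). USP29, a deubiquitinase gene, differed by 0.23 (SE 0.18) and ZIM3, a KRAB zinc finger gene, by −0.06 (SE 0.13), and neither was called. Without any 1 of the 4 arrays ZNF264 was not called in limma either.

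Zinc finger genes outside the neighbourhood differed in both directions. Those of chromosome 19 include the zinc finger genes of the flanks. The 6 that rose on the ZIM2 side and ZSCAN5B, which fell, are therefore counted again here. Of 238 on chromosome 19 outside the neighbourhood 27 rose and 57 fell, with a median difference of −0.07 and a range from −4.01 to 0.88. Of 281 on other chromosomes 27 rose and 61 fell, with a median of −0.08 and a range from −2.11 to 1.36. These shares of called genes, 35.3% and 31.3%, stand beside 29.6% of all genes. More of these genes fell than rose in each group, whereas over all genes 2728 rose and 2731 fell. With 1 array left out at a time the median of the zinc finger genes of chromosome 19 ran from −0.088 to −0.066. For those of other chromosomes it ran from −0.108 to −0.074, and over all genes from −0.042 to −0.034. These fits reuse the same arrays and do not count as separate evidence.

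Genes for the proteins through which KRAB zinc fingers silence chromatin were called in either direction. Of 18 such corepressor genes 2 rose and 2 fell, 22.2% against 29.6% of all genes, with a median of −0.03. TRIM28, the direct partner of the KRAB domain, had 10.93 and 10.91 as the means of PC-3 and PC-3-BM (difference −0.02, SE 0.07, limma, adjusted p = 0.889), and SETDB1, the histone methyltransferase it recruits, differed by 0.19 (SE 0.13, limma, adjusted p = 0.347). The corepressor genes called were MPHOSPH8 (0.47, SE 0.09) and ATF7IP (0.33, SE 0.07), which rose, and TASOR (−0.48, SE 0.07) and SMARCAD1 (−0.32, SE 0.07), which fell. MPHOSPH8 and TASOR encode subunits of one silencing complex, HUSH, and their genes were called in opposite directions. PPHLN1, of the same complex, differed by −0.32 (SE 0.11) and was not called. On probe sets with 1 gene symbol alone 9 of the 18 were called, 50% beside 40.1% of all genes. With 1 array left out at a time the median of the 18 ran from −0.072 to −0.0.

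Of 15 measured genes that write, erase or read DNA methylation 5 fell and 0 rose, with a median of −0.19. This is 33.3% called beside 29.6% of all genes, and 14.8% of all genes fell. UHRF1, which guides DNMT1 to newly copied DNA, fell by 1.05 (SE 0.10, limma, adjusted p = 0.00443), and TET1, which oxidises methylcytosine, fell by 0.88 (SE 0.09, limma, adjusted p = 0.00536). HELLS, MBD3 and MBD4 fell as well. With 1 array left out at a time the median of the 15 ran from −0.236 to −0.157, beside −0.042 to −0.034 over all genes. The methyltransferases DNMT1 (−0.18, SE 0.08), DNMT3A (−0.28, SE 0.08) and DNMT3B (−0.22, SE 0.13) were not called. The part of these genes in the ZNF667 difference was not tested.

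**Figure D5:**
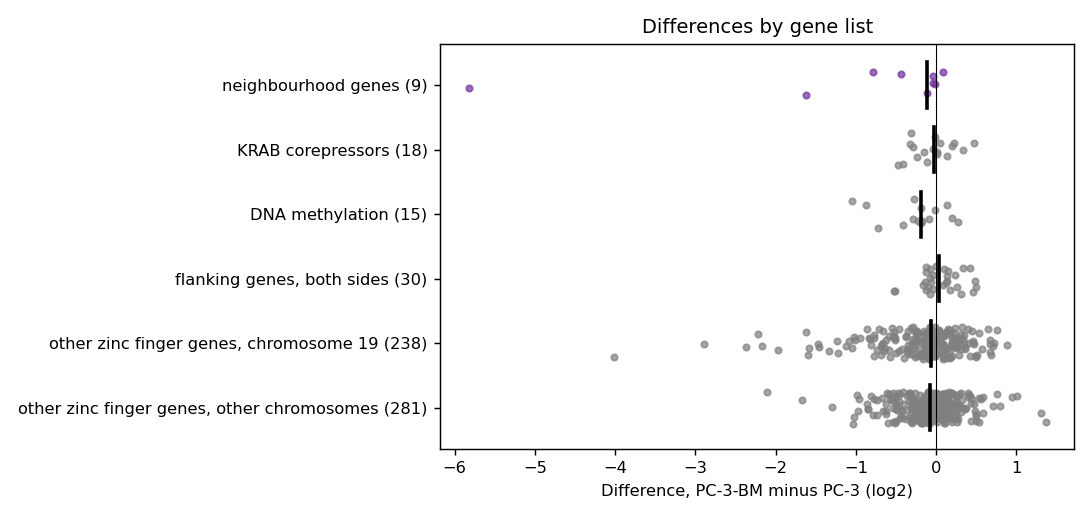
Differences between the lines (PC-3-BM minus PC-3, log2, horizontal axis) by gene list (vertical axis, number of measured genes in brackets). Each dot is a gene and black bars are medians, −0.12 for the neighbourhood genes and −0.07 and −0.08 for the other zinc finger genes on chromosome 19 and on other chromosomes.

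The genes whose pattern over the 4 arrays was most like that of ZNF667-AS1 were found by the root mean square distance between log2 values, each taken minus the mean of its own probe set. They were KIAA0040, the zinc finger gene ZNF730, the steroid-inactivating enzyme gene HSD17B2, the keratin gene KRT75 and FERMT1. Their distances ran from 0.869 to 1.325, and none came close to the size of the ZNF667-AS1 difference. Of these 5, only ZNF730 lies on chromosome 19. ZNF667 had closer matches, with distances from 0.031 to 0.048 for GPR4, ZNF215, TMT1B, FAM27B and GPR65. With 4 arrays in 2 groups such likeness describes little more than the size of the step between the lines.

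The arrays themselves correlated at 0.997 within PC-3 and 0.996 within PC-3-BM and at 0.983 to 0.985 between lines (Pearson, over probe sets, which do not count as independent replicates). Array medians ran from 6.66 to 6.72. Of the epithelial markers, KRT8 and KRT18 were bright in both lines and EPCAM had means of 6.90 and 5.60, and all 3 fell in PC-3-BM, although KRT18 was not called on any 3 arrays. The androgen-dependent genes KLK3 and KLK2 lay between 5.79 and 5.98 in both lines. Of 8 measured markers of blood, endothelial and stromal cells 3 rose (PECAM1, LUM and COL1A1, by 0.45 to 0.68) and 0 fell. This is a share of 37.5% called beside 29.6% of all genes, and 14.8% of all genes rose. On any 3 arrays the median difference of the 8 markers ran from 0.061 to 0.153. LUM (3.56 and 4.10) lay below the lower quartile in both lines. The endothelial CDH5 (difference −0.06) and the bone enzyme gene ALPL (−0.25, SE 0.07, limma, adjusted p = 0.0742) were not called, although ALPL fell over probe sets with a mean above 5 or with 1 gene symbol. The leukocyte marker PTPRC (3.75 and 3.99, difference 0.24, SE 0.08) and HBB (5.02 and 4.88) were at or below the lower quartile and were not called. Over probe sets with 1 gene symbol PTPRC rose as well. There 4 of the 8 markers rose and 1 fell, 62.5% beside 40.1% of all genes. Per the methods, cells harvested from bone were grown under geneticin and sorted for green fluorescent protein. The hosts were mice and the arrays are made for human transcripts, so these markers are not a reliable measure of host cells. The share of host cells in the extracted RNA was not measured. The part of these markers in the differences above was not tested.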

How the data were processed

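The authors hybridised RNA of PC-3 and PC-3-BM, 2 arrays each, to Affymetrix Human Gene 1.0 ST arrays, and deposited log2 values made by RMA (background correction, quantile normalization, summary per probe set). Tools named in the submitters' processing notes were R 3.2 and limma 3.24. The genome build behind the probe sets is not given in the sources used here. The table held 33297 probe sets, of which 19460 carried 1 gene symbol in the platform annotation, 1754 several and 12083 none, and 1 probe set per gene, the one with the highest mean, was used. PC-3-BM was compared with PC-3 in limma 3.58.1 (R 4.3.3) on all probe sets and all 4 arrays, with empirical Bayes moderation and Benjamini-Hochberg adjustment, and called at an adjusted p below 0.05. Rose and fell refer to that call. The code was tested on simulated data. The smallest p of an exact permutation test (two-sided) on 2 and 2 arrays is 0.333, so calls rest on moderated variances (2 residual and 2.88 prior degrees of freedom). Array number limits the precision.

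The genes, lists and tests were chosen with earlier results of these data known. Named genes were all 10 neighbourhood genes, up to 2 per direction with the largest change in each other list (the 2 with the highest mean where none was called), and the 5 most like ZNF667-AS1 and ZNF667. Others named for their role (SETDB1, TRIM28, PPHLN1, the DNA methyltransferases, HELLS, MBD3, MBD4, ZSCAN5A, ZNF542P and further flanking genes) were added after their values were seen. RefSeq served for gene order and promoter windows. Median centring, renewed quantile normalization, a filter on mean level above 5, 1-symbol probe sets alone, a variance trend, a replicate block, leaving out each array and the study's threshold were alternatives. A shift shared by most genes would be lost in RMA, and probes of near-identical zinc finger genes may cross-hybridise.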

Additional observations from a re-analysis of the deposited data

How the results depend on the processing

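The differences of ZNF667-AS1 and ZNF667 ran from −6.08 to −5.56 and from −1.63 to −1.59 over the alternatives, as a description of genes chosen on this contrast. Leaving out 1 array at a time gave −0.90 to −0.68 for ZNF471 and −0.49 to −0.38 for ZNF71. The small differences changed sign with single arrays, from −0.24 to 0.15 for ZNF583, from −0.128 to 0.037 for ZFP28 and from −0.14 to 0.10 for ZNF470, which was also at 0.01 (0.015) with arrays centred on their medians. The median of the 9 genes ran from −0.236 to −0.037 without 1 array and was −0.43 (−0.434) over the genes with a mean above 5. Without 1 array, 2 to 3 of the 9 genes, 0 to 3 of the 30 flanking genes and 2238 to 3854 probe sets were called, against 4, 8 and 7717, and at the study's threshold 0 of the 9 and 17 probe sets passed. Chosen after the data were seen, the same threshold under the other settings passed 1 of the 9, ZNF667-AS1, and 84 probe sets with centring, 85 with a mean above 5, 83 with 1 gene symbol and 99 with a variance trend, but 0 of the 9 and 29 probe sets after renewed quantile normalization, and 0 and 0 with the replicate block or without any 1 array. Fewer arrays leave 1 residual degree of freedom, and the lone array of a line is assumed to vary like the other line. With a replicate block 4 of the 9 genes, 5 flanking genes and 6473 probe sets were called. The labels give no shared batch for equal numbers, and deviations of equally numbered arrays correlated at −0.017. With 2 arrays per line this single value cannot settle whether a batch was shared. Centring moved the split of calls to 4212 higher and 3254 lower from 3854 and 3863. Averaging probe sets per gene changes nothing here, since each of the 9 genes had 1. Genes between ZNF582 and ZIM2 outside the 9 had no probe set of their own and could not be tested.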
